A study of Mus with 3 samples.

Results

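The 10 genes described here code for receptors that were named on natural killer (NK) cells and that T cells can also carry: Klrd1, Klrk1, Klrc1, Klrc2, Klre1, Klrb1c, Klrg1, Styk1, Ncr1 and Cd7. They were named from the 32285 genes measured as a family of receptors, with earlier results of these data known, and were read in 3430 tumor T cells out of 5600 cells. The T cells came from tumors of MC38, a mouse colon adenocarcinoma line, taken on day 16 after injection from 3 kinds of mice. RARα is a nuclear receptor for retinoic acid, coded by Rara. RARα-KO mice (KO) carried a floxed Rara and a Cre under the distal Lck promoter, which acts in T cells, CD4 T cells included. RARα-TG mice (TG) expressed Rara from the CD2 promoter, also in T cells. The study used C57BL/6 and dLck-Cre mice as wild type (WT) controls, and the sources used here do not say which of them gave the WT tumor. From each genotype 10000 unselected cells and 30000 T cells sorted as CD45.2+ CD3+ were marked with a hashtag antibody and pooled into 1 library of a 5′ single-cell kit that also read the T cell receptor (TCR). Some label fields speak of spleen and of naive CD8 T cells after activation, which goes against the tumor protocol in the same labels, and the protocol was followed here.

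Each genotype was 1 sample, and the number of mice behind it was not given. No test between genotypes was therefore possible, no p-value was computed, and differences between mice or tumors cannot be told apart from differences between genotypes. Levels are unique molecular identifiers (UMIs) of a gene per 1000000 gene UMIs of the same cells (CPM). All intervals are at 95% and exact, by Poisson counts for CPM, by Clopper-Pearson for shares and by the binomial for ratios of CPM. They cover counting error only, so a difference beyond them is a difference between these pools of cells. Where a count was 0, the limit printed is the level or share that 3 UMIs or 3 cells would give. A gene is called 2-fold higher or lower where its log2 ratio of CPM was 1 or more, or -1 or less, and it entered a comparison where 10 or more UMIs would be counted in the smaller sum at equal levels. KO and TG were both set against the same WT sample.

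Most of these receptors are C-type lectins coded side by side in the NK gene complex. Klrd1 codes for CD94, which pairs with the product of Klrc1 to form the inhibitory receptor NKG2A or with that of Klrc2 to form the activating NKG2C, and both pairs bind the nonclassical MHC molecule Qa-1, coded by H2-T23. Klrk1 codes for NKG2D, an activating receptor for stress-induced ligands, which signals through the adaptor coded by Hcst. Activated CD8 T cells are known to take up several of these genes, and Klrg1, an inhibitory receptor for cadherins, is known from terminal effector cells and from regulatory T cells of tissues. Ncr1, which codes for NKp46, marks NK cells and is usually not made by T cells with an αβ TCR.

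All 10 genes were matched by symbol in the RefSeq annotation of GRCm38, the build of the deposited counts. Klrb1c, Klre1, Klrd1, Klrk1, Klrc2, Klrc1 and Styk1 lie on chromosome 6 within 2.58 megabases, at chr6:128778485-131353836. Inside that stretch Klrd1 takes chr6:129588092-129598775, next to Klre1 at chr6:129559365-129585828 and Klrk1 at chr6:129610323-129623903. Klrc1 lies at chr6:129666015-129682852 and Klrc2 at chr6:129649602-129660737. Klrg1 is on the same chromosome but outside the stretch, at chr6:122270596-122282833. Ncr1 lies on chromosome 7 and Cd7 on chromosome 11.

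T cells were hashtag singlets of 500 or more gene UMIs that had a clonotype in the deposited TCR table, 1306 in WT, 1462 in KO and 662 in TG. A cell with a Cd8a UMI and no Cd4 UMI was called a CD8 T cell, and a cell with a Cd4 UMI and no Cd8a or Cd8b1 UMI a CD4 T cell, which was Foxp3-positive with 1 or more Foxp3 UMIs. Foxp3 codes for the factor that defines regulatory T cells. There were 798 CD8 T cells in WT, 994 in KO and 95 in TG. Foxp3-negative CD4 T cells numbered 89, 151 and 100, and Foxp3-positive ones 107, 79 and 142 in the same order. The median depth of these 9 groups was between 3918 and 5770 UMIs per cell. All 6 T cell markers searched were present in each class of each genotype. Of 9 NK markers searched, Ncr1 and Klra8 had no UMI in any of these classes, while others were counted. The 9 markers summed to 1622 CPM in WT, 1687 in KO and 1690.0 in TG CD8 T cells, and to between 511 and 727 in the CD4 classes. The hashtags and the TCR told the same story about the cells' source: of 1760 cells in 106 clonotypes of 5 or more cells, 3 carried another hashtag than most of their clonotype. Rara itself stood at 81.6 CPM in WT, 76.6 in KO and 200.1 in TG CD8 T cells. The KO allele still gives a transcript that lacks an inner exon, so these 5′ counts do not check the deletion.

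The receptors split by T cell class. Klrd1, Klrc1, Klrk1 and Klre1 were high in CD8 T cells, intermediate or low in Foxp3-negative CD4 T cells and close to absent in Foxp3-positive cells, apart from Klrc1. Klrg1 had the opposite order. Cd7 was higher in CD8 than in CD4 T cells of each genotype, with its highest level in TG CD8 T cells. T cells that passed neither the CD8 nor the CD4 gate had more Cd7 than CD8 T cells in WT and KO, at 128 and 103 CPM. Ncr1 had no UMI in any of the 3430 T cells. In WT, 5 of the 6 members that entered the comparison were 2-fold or more higher in CD8 than in Foxp3-negative CD4 T cells (Klrd1, Klrk1, Klre1, Styk1 and Cd7) and none was lower, against 3.79% of the 5144 genes higher and 4.39% lower. In KO, 4 of 8 were higher (Klrk1, Klrc2, Klre1 and Cd7) and Klrg1 was lower, against 5.54% and 2.46% of 6915 genes. In TG, 3 of 5 were higher (Klrd1, Klrk1 and Cd7) and Klrg1 was lower, against 4.22% and 9.87% of 5307 genes. The members' median log2 ratio was 1.34 in WT, 1.27 in KO and 3.05 in TG, and that of all genes compared was -0.11, -0.02 and -0.12.

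**Figure D1:**
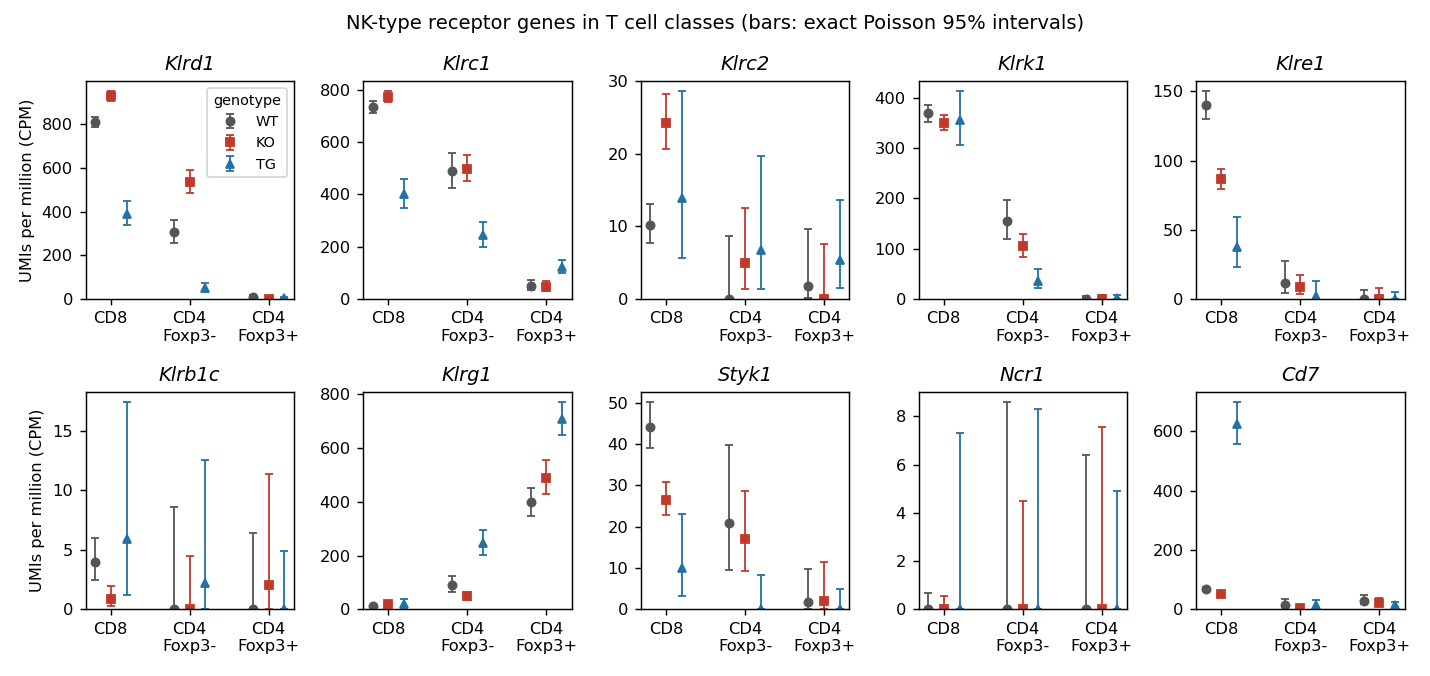
Level of each of the 10 genes, in UMIs per 1000000 gene UMIs (CPM), in CD8, Foxp3-negative CD4 and Foxp3-positive CD4 T cells of WT (circles), KO (squares) and TG (triangles). Each point is 1 pool of cells and each bar its exact Poisson 95% interval. Klrd1 falls from 812 CPM in WT CD8 to 6.93 in WT Foxp3-positive cells while Klrg1 goes from 11 to 397, and Cd7 stands at 626 CPM in TG CD8 T cells.

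Klrd1, the shared subunit, stood in CD8 T cells at 812 CPM in WT (95% interval 789 to 836), 929 in KO (906 to 952) and 390.3 in TG (338 to 449). KO was thus slightly above WT and TG well below it, and none of the intervals overlapped. A Klrd1 UMI was found in 90.7% of WT, 89.6% of KO and 72.6% of TG CD8 T cells. With each cell thinned to 1000 UMIs the shares were 53.3%, 55.4% and 36.6%, so TG stayed below the others at equal depth. In Foxp3-negative CD4 T cells Klrd1 stood at 305 CPM in WT, 536 in KO and 47.3 in TG, again in the order KO, WT, TG without overlap. In Foxp3-positive cells 4 UMIs were counted in WT, 0 in KO and 1 in TG.

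Klrc1, the inhibitory partner, followed Klrd1 in CD8 T cells, at 734 CPM in WT (712 to 757), 775 in KO (755 to 797) and 400.2 in TG (347 to 459). In Foxp3-negative CD4 T cells it stood at 489 CPM in WT, 499.7 in KO and 243 in TG, where WT and KO overlapped. Unlike Klrd1 it was also counted in Foxp3-positive cells, at 50.2 CPM in WT (33.6 to 72.1), 45.0 in KO (28.2 to 68.2) and 121 in TG (97.5 to 149). A Klrc1 UMI was present in 13.1% of these cells in WT, 12.7% in KO and 29.6% in TG, and in 4.67%, 5.06% and 12% after thinning. Of the 42 TG Foxp3-positive cells with a Klrc1 UMI, 0 had a Klrd1 UMI, which allows a share of up to 7.14%. Of the 715 WT CD8 T cells with a Klrc1 UMI, 92.3% had one of Klrd1 (90.1% to 94.2%). The median depth was 4326 UMIs in the former cells and 6017 in the latter. Of the Foxp3-positive cells with Klrc1 in WT and KO, 2 of 14 and 0 of 10 had Klrd1. Foxp3-positive cells that carried Klrc1 thus mostly lacked a UMI of its partner, whereas most CD8 T cells with Klrc1 had one. Cells without a Klrc1 UMI split by class as well. Klrd1 was found in 77.1% of such CD8 T cells in WT, 74.4% in KO and 72.2% in TG. Among such Foxp3-positive cells it was found in 0 of 93, 0 of 69 and 1 of 100. The contrast between the classes is therefore not particular to cells with Klrc1.

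Klrc2, the activating partner, was counted at 10.1 CPM in WT (7.64 to 13.1), 24.3 in KO (20.7 to 28.3) and 13.9 in TG CD8 T cells (5.58 to 28.6). KO lay above WT, and TG overlapped both. In KO, 33.7% of the Klrc2 UMIs came from 1 clonotype of 116 CD8 T cells. Klrc1 and Klrc2 are close relatives, and the sources used here do not say how reads that fit both were counted. In CD4 T cells Klrc2 had at most 4 UMIs in any group.

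Klrk1, which codes for NKG2D, had overlapping levels in the 3 genotypes over all CD8 T cells, though not among cells that were alone in their clonotype. It stood at 369 CPM in WT (353 to 386), 350.3 in KO (336 to 365) and 357 in TG (306 to 413). Among CD8 T cells alone in their clonotype it stood at 219 CPM in WT, 298 in KO and 334 in TG, and was higher beyond counting error in KO over WT (log2 ratio 0.45, 0.12 to 0.77) and in TG over WT (0.61, 0.28 to 0.94). After thinning, 31.5% of WT, 31.5% of KO and 32.3% of TG cells had a UMI. In Foxp3-negative CD4 T cells it stood at 154 CPM in WT, 105 in KO and 36.0 in TG. In Foxp3-positive cells 0 UMIs were counted in WT and KO and 1 in TG, where the count of 0 in WT allows a level of up to 5.2 CPM.

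Klre1 codes for a receptor that pairs with products of the Klri genes. It was restricted to CD8 T cells among the classes more sharply than its neighbour Klrd1, with 139.8 CPM in WT (130.1 to 150.0), 86.4 in KO (79.5 to 93.8) and 37.6 in TG (22.7 to 58.8). In Foxp3-negative CD4 T cells it had 5 UMIs in WT, 7 in KO and 1 in TG, and in Foxp3-positive cells none in any genotype. Styk1, a kinase-like membrane protein, had the same order in CD8 T cells, at 44.2 CPM in WT (38.9 to 50.1), 26.5 in KO (22.8 to 30.7) and 9.91 in TG (3.22 to 23.1). Both were thus highest in WT, lower in KO and lowest in TG, with KO and TG of Styk1 overlapping by their intervals.

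Klrb1c, which codes for NK1.1, was rare: 20 WT, 7 KO and 3 TG T cells had a UMI. Of these cells, 16, 6 and 2 were CD8 T cells. Invariant NKT cells, the T cells best known for NK1.1, join TRAV11 to TRAJ18, and 2 WT, 0 KO and 3 TG T cells had that join. Only 1 of these 5 cells, a TG cell, had a Klrb1c UMI. Both WT cells with the join had Klrd1, Klrk1 and Cd7 UMIs. No T cell joined TRAV1 to TRAJ33, the chain of mucosal-associated invariant T cells.

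Among the CD8 and CD4 classes Klrg1 was highest in Foxp3-positive cells of each genotype. It stood there at 397 CPM in WT (347 to 452), 489 in KO (429 to 555) and 707 in TG (648 to 769.7), against 11, 21.6 and 21.8 CPM in CD8 T cells. In Foxp3-negative CD4 T cells it stood at 90.8, 48.6 and 245 CPM. T cells that passed neither gate had 204, 173 and 497 CPM in the same order. WT and KO overlapped in Foxp3-positive cells and TG lay above both. A UMI was found in 58.9%, 64.6% and 71.8% of Foxp3-positive cells, and after thinning in 25.2%, 35.4% and 47.9%. Among Foxp3-positive over Foxp3-negative CD4 T cells, Klrg1 was the 1 member called higher in each genotype, at log2 ratios of 2.13 in WT (1.63 to 2.66), 3.33 in KO (2.84 to 3.85) and 1.53 in TG (1.23 to 1.84). Klrd1, Klrk1 and Klrc1 were called lower in WT and KO, and Klrc1 in TG, where its log2 ratio of -1.0 lay on the bound. That made 1 of 5 members higher and 3 lower in WT against 6.65% and 6.17% of 5351 genes, 1 of 4 higher and 3 lower in KO against 6.47% and 5.66% of 5564 genes, and 1 of 2 higher and 1 lower in TG against 6.90% and 4.21% of 5508 genes. The members' median log2 ratio was -3.28 in WT, -3.78 in KO and 0.26 in TG, and that of all genes lay within 0.02 of 0 in each.

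Foxp3-negative CD4 T cells can include regulatory T cells whose Foxp3 was not caught, and the TCR gives a partial measure of it. A cell alone in its clonotype cannot share it, and this held for 48 of 89 WT, 56 of 151 KO and 68 of 100 TG cells. Such single cells carried 34 of 39 Klrg1 UMIs of the class in WT, 16 of 40 in KO and 39 of 109 in TG. The counts of shared clonotypes cannot cover them. In TG, 10 of the 100 Foxp3-negative cells belonged to clonotypes that also held a Foxp3-positive cell, in KO 4 of 151, and in WT 0 of 89. The 10 TG cells carried 57 of the 109 Klrg1 UMIs of their class, at 1010.1 CPM (765 to 1309), and the other 90 stood at 134 CPM (100.1 to 176). The 10 TG cells of shared clonotypes had 0 Klrd1 UMIs. The WT Foxp3-negative class had a summed level of 10 myeloid markers of 203 CPM, against 9.73 in KO and 18 in TG, and its part in these values was not tested. Without the Foxp3-negative cells of clonotypes shared with Foxp3-positive cells, Klrc1 was no longer called lower in TG Foxp3-positive cells. Klrg1 was then no longer called lower in KO CD8 than in Foxp3-negative CD4 T cells.

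Cd7, an immunoglobulin superfamily receptor of T and NK cells, was the member that differed most between WT and TG. In CD8 T cells it stood at 67.2 CPM in WT (60.5 to 74.4), 51.3 in KO (46.0 to 57.0) and 626 in TG (559 to 699). A Cd7 UMI was found in 18.4% of WT, 14.2% of KO and 69.5% of TG cells, and in 7.39%, 4.93% and 38.7% after thinning. The 316 TG UMIs came from 65 clonotypes, and the leading one gave 18.0% of them. In CD4 T cells Cd7 lay between 3.65 and 29.4 CPM in all 6 groups, so the high TG level was found in CD8 and not in CD4 T cells.

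The genotypes were then compared in CD8 T cells across all genes. In KO over WT, 1 of 9 members was 2-fold or more higher (Klrc2) and 1 lower (Klrb1c), against 3.32% and 2.41% of 10459 genes. The log2 ratio was 1.26 for Klrc2 (0.82 to 1.73) and -2.15 for Klrb1c (-3.74 to -0.81), which rested on 6 KO and 22 WT UMIs. Klrg1 stood just under the bound at 0.97 (0.53 to 1.43). Klre1 at -0.69 (-0.85 to -0.54) and Styk1 at -0.74 (-1.03 to -0.45) were lower in KO beyond counting error but under 2-fold. The members' median was -0.08, and that of all genes 0.02.

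In TG over WT, 1 of 6 members was 2-fold or more higher (Cd7) and 3 were lower (Klrd1, Klre1 and Styk1), against 1.97% and 6.49% of 5579 genes. The log2 ratio was 3.22 for Cd7 (3.0 to 3.44), -1.06 for Klrd1 (-1.27 to -0.85), -1.89 for Klre1 (-2.63 to -1.24) and -2.16 for Styk1 (-3.79 to -0.92). Klrc1 was just under the bound at -0.87 (-1.09 to -0.67). Klrk1 stood apart from its neighbours at -0.05 (-0.28 to 0.17). The members' median was -0.97, and that of all genes -0.03.

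The genotypes differed in how often CD8 clonotypes were repeated, and this bears on the comparison. Of the CD8 T cells, 126 of 798 in WT, 94 of 994 in KO and 82 of 95 in TG were the single cell of their clonotype. Compared among these cells alone, a choice made after the levels had been seen, TG over WT left Cd7 as the 1 member of 5 called higher, at a log2 ratio of 1.72 (1.43 to 2.01), and called 0 lower, against 2.65% and 4.97% of 5212 genes. Klrd1 then stood at -0.56 (-0.83 to -0.31), Klrc1 at -0.17 (-0.46 to 0.11) and Klre1 at -0.74 (-1.66 to 0.12). Styk1 had too few UMIs to enter, with 5 in TG and 17 in WT, and stood at -1.04 (-2.84 to 0.45). Klrk1 was higher in TG among these cells, as given above. In KO over WT 0 of the 7 members that entered passed the bound either way, against 5.08% of 5968 genes higher and 3.45% lower. Klrg1 had too few UMIs to enter, with 20 in KO and 3 in WT. It stood at 36.5 CPM in KO against 4.05 in WT, a log2 ratio of 3.17 (1.42 to 5.57). Klrc2 was at -0.01 (-1.28 to 1.21). Klre1 stood at -0.50 (-1.29 to 0.26). Klrk1 at 0.45 (0.12 to 0.77) and Klrc1 at 0.39 (0.15 to 0.63) were higher in KO beyond counting error, where over all CD8 T cells they were at -0.08 (-0.16 to 0.01) and 0.08 (0.02 to 0.14). For Klrd1, Klrc1 and Cd7 in TG the intervals over all CD8 T cells and over single cells did not overlap, with the smaller difference in single cells. They also did not overlap for Klrk1 in TG and for Klrk1 and Klrc1 in KO, with the larger difference in single cells. For Klre1 in TG and for Klrc2 and Klre1 in KO they overlapped.

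**Figure D2:**
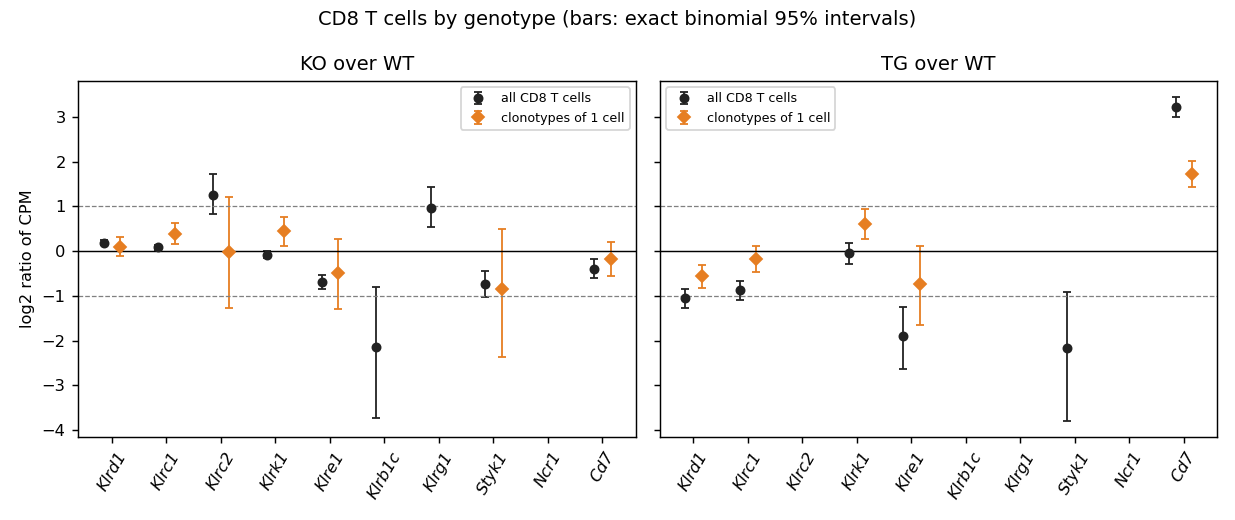
Log2 ratio of CPM in CD8 T cells of KO over WT (left) and TG over WT (right) for each member with enough UMIs, in all CD8 T cells (circles) and in those whose clonotype has 1 cell (diamonds). Bars are exact binomial 95% intervals and dashed lines mark the 2-fold bounds. Cd7 in TG stays above the bound in both, at 3.22 and 1.72, and Klrc2 in KO goes from 1.26 to -0.01.

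Clonotype size is the number of T cells of a genotype that share a TCR. In CD8 T cells of WT and KO, Klrd1, Klrc1, Klrk1, Klre1 and Styk1 were higher in clonotypes of 10 or more cells than in single cells, and Cd7 was lower. Klrc2 and Klrg1 did not share a direction between the genotypes. Klrc2 in WT stood at 8.88 against 20.2 CPM (log2 ratio -1.19, -2.13 to -0.19) and in KO at 27.1 against 20.1 (0.43, -0.46 to 1.47). Klrg1 in WT stood at 13.9 against 4.05 CPM (1.78, 0.15 to 4.11) and in KO at 23.2 against 36.5 (-0.65, -1.35 to 0.11). Both had too few UMIs in WT to enter the comparison. In WT, Klrd1 stood at 583 CPM in clonotypes of 1 cell, 882 in those of 2 to 9 and 834 in those of 10 or more. Klrc1 went from 402 to 793 and 782 CPM in the same order, and Klrk1 stood at 219 and 394 in the first 2 sizes, with a log2 ratio of 0.84 for large over single. Most of the difference thus lay between 1 cell and 2 to 9 cells. Klre1 stood at 59.4, 149 and 154 CPM, and Cd7 at 197, 44.5 and 48.2.

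In KO, Klrd1 stood at 625, 867 and 985 CPM over the same 3 sizes, and Klrc1 at 526, 695 and 831. Klre1 went from 42 to 72.0 and 96.4 CPM and Cd7 from 175 to 24.4 and 45.4. Levels here still differed between the middle and the large sizes for Klrd1, Klrc1 and Klre1, as their intervals did not overlap for Klrd1 (821 to 915 and 956 to 1014), Klrc1 (654 to 738 and 805 to 858) or Klre1 (59.1 to 86.8 and 87.7 to 106). TG had 13 CD8 T cells in clonotypes of 2 to 9 and none in larger ones. In these 13 cells Klrc1 stood at 755 CPM (544 to 1020.0) against 356 in single TG cells, and Cd7 at 449 (291 to 663) against 648 (576 to 727). Klrk1 stood at 539 CPM against 334 and Klre1 at 53.9 against 35.6, both with overlapping intervals. Klrd1 stood at 359 CPM (219 to 555) against 394 (338 to 457), and 1 clonotype gave 55.0% of its UMIs in the 13 cells. After thinning, the Klrd1 shares were 58.3% against 33.3%, so its direction was not settled. Styk1 had 0 UMIs against 5 in single TG cells. That 0 allows up to 53.9 CPM, above the 11.1 CPM of single TG cells, and cannot show a direction.

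Against all genes, Klre1 and Styk1 were the 2 of 6 members in WT and the 2 of 8 in KO that were 2-fold or more higher in large than in single-cell clonotypes, and Cd7 was the 1 called lower in both. The background was 3.78% of 6663 genes higher and 2.39% lower in WT, and 1.77% of 5810 genes higher and 1.17% lower in KO. The log2 ratio of Klre1 was 1.37 in WT (0.93 to 1.85) and 1.20 in KO (0.59 to 1.87), and that of Cd7 -2.03 (-2.36 to -1.70) and -1.95 (-2.30 to -1.59). Styk1 stood close to the bound, at 1.05 (0.33 to 1.87) and 1.13 (0.05 to 2.47). Single cells were shallower, with a median of 4250.5 UMIs in WT and 3948 in KO against 6052.5 and 5514 in large clonotypes. The members' median was 0.90 in WT and 0.54 in KO, beside 0.04 and -0.05 for all genes. With the genotype taken from the share of the top hashtag, the WT ratios of Klre1 and Styk1 were 0.99 and 0.50, under the bound.

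**Figure D3:**
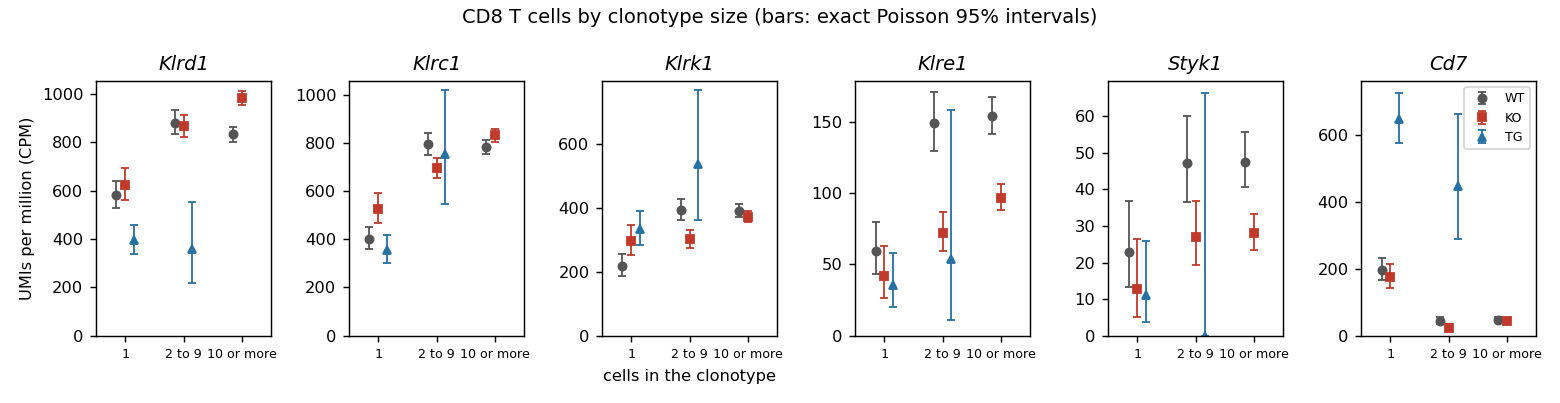
Level in CPM of 6 members in CD8 T cells by the size of the cell's clonotype in its genotype (1, 2 to 9, or 10 or more cells), for WT (circles), KO (squares) and TG (triangles, which has no clonotype of 10 or more CD8 T cells). Bars are exact Poisson 95% intervals. In WT and KO, Cd7 is highest in single cells, at 197 and 175 CPM, where the other 5 genes are lowest.

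Foxp3-negative CD4 T cells of WT and KO also had higher Klrd1, Klrc1 and Klrk1 in clonotypes of 2 or more cells, in fewer cells. In TG the 10 cells of the largest size were those of clonotypes shared with Foxp3-positive cells, and they had 0 Klrd1 and 0 Klrk1 UMIs. In 22 TG cells of clonotypes of 2 to 9, Klrd1 stood at 111 CPM (55.3 to 198) against 34.6 in 68 single cells (16.6 to 63.7). Klrk1 stood at 40.3 against 41.6 CPM in the same TG cells, and Klrc1 at 262 against 222. In WT, Klrc1 stood at 192 CPM in 48 single cells (137 to 262), 706 in 27 cells of clonotypes of 2 to 9 (574 to 861) and 871 in 14 cells of 1 larger clonotype (681 to 1097). In KO, Klrd1 stood at 317, 637 and 581 CPM over the 3 sizes, with 56, 63 and 32 cells. The largest size rests on 1 clonotype in WT and 3 in KO, so it describes those clonotypes. In Foxp3-positive cells of TG, Klrg1 went from 579.9 CPM in 71 single cells to 643 in 46 cells of 2 to 9 and 1265 in 25 cells of 3 larger clonotypes, of which 1 gave 56.8% of the UMIs.

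Cells of a clonotype are not replicates, and the spread between clonotypes shows how much a level can rest on which of them were sampled. There were 9 WT and 10 KO clonotypes of 20 or more CD8 T cells, with 330 and 496 cells. Over them Klrd1 ranged from 620.1 to 1031 CPM in WT (median 888) and from 718 to 1421 in KO (median 1025). Klrk1 ranged from 259.7 to 557 in WT (median 398) and from 176 to 571 in KO (median 396). The genotypes overlapped widely for both.

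Klre1 ranged from 95 to 235 CPM over WT clonotypes (median 163) and from 30.6 to 259.7 over those of KO (median 99.4). Its highest and lowest values were both in KO. Styk1 ranged from 37.5 to 110 CPM in WT (median 54.1) and from 0 to 107 in KO (median 24.2). Cd7 ranged from 7.33 to 106 CPM in WT (median 37.9) and from 0 to 98.7 in KO (median 34.3). These large clonotypes are not matched to TG, where 82 of 95 CD8 T cells were alone in their clonotype. Among such single cells Cd7 stood at 197 CPM in WT, 175 in KO and 648 in TG.

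**Figure D4:**
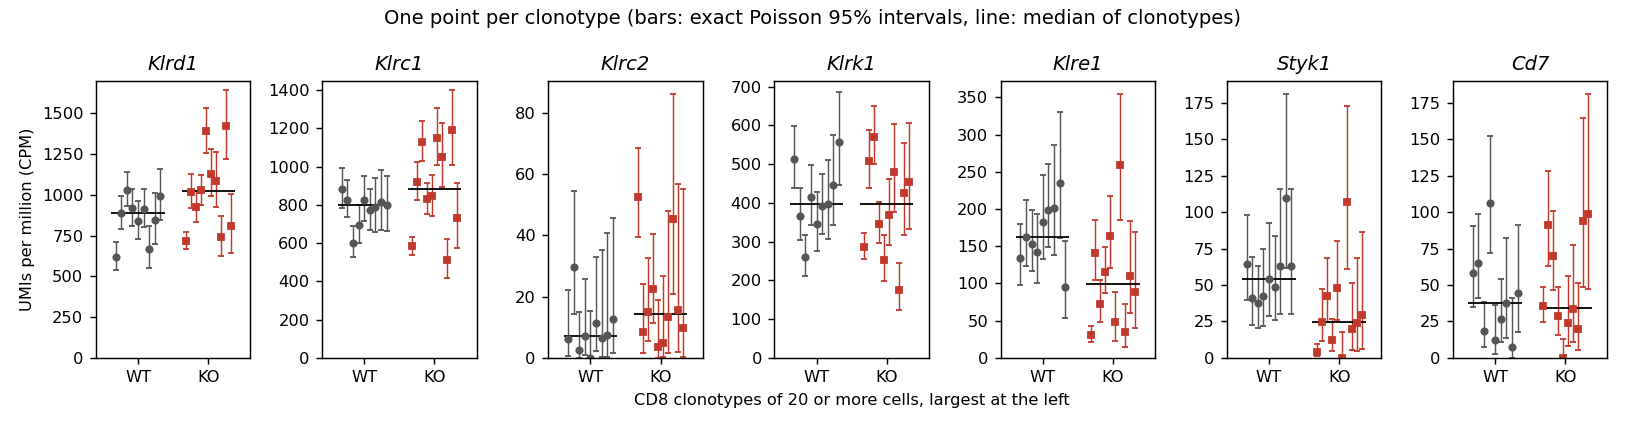
Level in CPM of 7 members in each CD8 clonotype of 20 or more cells, 9 in WT (circles) and 10 in KO (squares), drawn from the largest clonotype at the left to the smallest at the right. Bars are exact Poisson 95% intervals and the line is the median over clonotypes. KO clonotype 1, at the left of the KO points, has the highest Klrc2 (52.6 CPM) and the lowest Klre1 (30.6 CPM).

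KO clonotypes 1 and 8 were alike in high Klrc2 and low Klre1. Clonotype 1, the largest, had 52.6 CPM of Klrc2 (39.6 to 68.4), in 32.8% of 116 cells, where the median KO clonotype had 14.2 CPM. Its Klre1 was at 30.6 CPM (20.9 to 43.2) and its Styk1 at 3.82 (1.04 to 9.79), and its Klrd1 of 718 CPM was the lowest of the KO clonotypes. Clonotype 8, of 25 cells and with other V genes, had Klrc2 at 45.3 CPM (20.7 to 86.1), Klre1 at 35.3 (14.2 to 72.6) and Klrd1 at 740.4 (626 to 870.2). Without the largest CD8 clonotype of each genotype, the log2 ratio of Klrc2 in KO over WT was 0.88, under the 2-fold bound. With each clonotype weighted equally it was 0.10. The CDR3 of clonotype 1, the part of the receptor that contacts the antigen, is printed because this clonotype gave more Klrc2 UMIs than any other in KO. Its α chain joined TRAV14N-3 to TRAJ22 and its β chain TRBV16 to TRBJ1-3.
KO clonotype 1, α chain: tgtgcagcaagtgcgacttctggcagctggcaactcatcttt
KO clonotype 1, β chain: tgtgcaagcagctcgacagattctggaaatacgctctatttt

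KO clonotypes 4, 6 and 10 shared 1 α chain CDR3 base for base, of TRAV12D-1 and TRAJ22, and differed in the β chain, which used TRBV16 in each. They were looked up after the values had been seen, and are shown to set receptors with a common chain beside each other. Capitals mark what follows the first 9 bases, which the 3 β chains share.
KO clonotypes 4, 6 and 10, α chain: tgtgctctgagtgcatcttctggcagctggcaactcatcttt
KO clonotype 4, β chain: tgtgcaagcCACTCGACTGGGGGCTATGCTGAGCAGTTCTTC
KO clonotype 6, β chain: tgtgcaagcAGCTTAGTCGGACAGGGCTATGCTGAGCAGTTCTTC
KO clonotype 10, β chain: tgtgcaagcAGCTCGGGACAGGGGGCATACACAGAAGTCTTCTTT
Their Klrc1 levels were 832 CPM (753 to 917), 1150 (1009 to 1305) and 730.1 (573 to 917). Clonotype 6 lay above both others. Their Klre1 stood at 115, 47.9 and 88.8 CPM, where the interval of clonotype 6 (23 to 88.1) overlapped those of both others (86.9 to 149 and 40.6 to 169). Among these 3 clonotypes with a common α chain, clonotype 6 thus differed in Klrc1, while clonotypes 4 and 10 overlapped.

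A pair of clonotypes of different genotypes was also found after the values were seen, and is shown for its near-identical β chains. The α chains differed, joining TRAV7D-2 to TRAJ7 in the WT clonotype and TRAV3-3 to TRAJ7 in the KO clonotype. The β chains had the same length, joined TRBV16 to TRBJ2-7 and differed at 2 of 42 bases, which are in capitals.
WT clonotype 5, β chain: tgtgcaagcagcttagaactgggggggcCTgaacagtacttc
KO clonotype 5, β chain: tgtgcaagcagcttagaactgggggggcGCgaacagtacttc
Klrd1 stood at 840.1 CPM in the WT clonotype (728 to 964) and 1392 in the KO clonotype (1260.0 to 1534). Klre1 was alike in both, at 183 CPM (133 to 246) and 164 (121 to 217), and Klrc1 at 828 (717 to 951) and 846 (744 to 958). Cd7 was low in both, with 3 UMIs in 36 WT cells and 0 in 37 KO cells.

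The members were last read by the level of Gzmc, Gzmd, Gzme and Gzmf, granzymes coded side by side that NK cells and strongly activated CD8 T cells are known to make. A CD8 T cell was called high with 50 or more of their summed UMIs per 10000 of its own and low with under 5. These are ranges of 1 score and not cell types: 69 WT, 73 KO and 6 TG cells lay within 2-fold of the lower bound, and 74, 24 and 2 within 2-fold of the upper. High cells numbered 99 of 798 in WT, 38 of 994 in KO and 3 of 95 in TG, where no comparison was made. High cells were deeper, with a median of 9333 UMIs in WT and 11060 in KO against 5046 and 5230 in low cells.

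Members of the NK complex differed by less than 2-fold along these granzymes, and Cd7 was lower where they were high. In WT, Klrd1 stood at 772 CPM in low cells (744 to 802), 891 in cells between the bounds (832 to 953) and 877 in high cells (821 to 936). Klrc1 went the other way, at 791, 642 and 624 CPM. Klrk1 stood at 398, 312 and 324 CPM. Cd7 went from 95.8 CPM in low cells (85.9 to 107) to 23 (14.4 to 34.8) and 9.70 in high cells (4.65 to 17.8).

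In KO, Klrd1 stood at 927 CPM in low, 999 in middle and 872 in high cells, with overlapping intervals. Klrc1 stood at 792, 762 and 558 CPM, and Cd7 at 55.0, 35.5 and 16.4. In WT, 1 of 8 members was 2-fold or more higher in high than in low cells (Klrg1, from 20 UMIs in the high cells) and 1 lower (Cd7), against 1.30% and 5.27% of 7490 genes. In KO, 0 of 7 were higher and 1 was lower (Cd7), against 1.17% and 7.20% of 5126 genes. The log2 ratio of Cd7 was -3.30 in WT (-4.38 to -2.41) and -1.75 in KO (-3.07 to -0.69). The members' median was 0.15 in WT and -0.40 in KO, beside -0.09 and -0.15 for all genes. Over all WT CD8 T cells, WT clonotype 1 gave 31.1% of the Klrg1 UMIs, and among the WT high cells 1 clonotype gave 75.0%. Without the largest clonotypes the log2 ratio of Klrg1 was -0.68, so its call rests on WT clonotype 1.

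**Figure D5:**
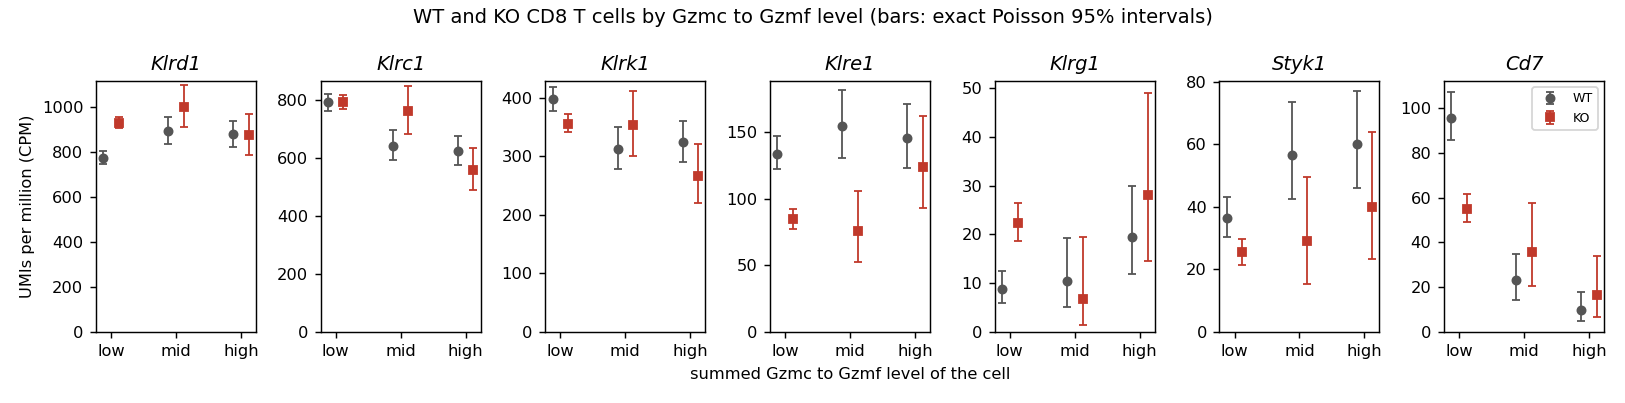
Level in CPM of 7 members in WT (circles) and KO (squares) CD8 T cells whose summed Gzmc to Gzmf level was low, mid or high. Bars are exact Poisson 95% intervals. Cd7 goes from 95.8 to 9.70 CPM in WT, and Klre1 of KO low cells, at 84.5 CPM, lies under the 134 CPM of WT low cells.

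Since KO had fewer high cells, the genotypes were also read within a range. Among low cells Klre1 stood at 134 CPM in WT (122 to 147) and 84.5 in KO (77.2 to 92.3), a log2 ratio of -0.67 (-0.85 to -0.48), which is close to that over all CD8 T cells. Among high cells it stood at 146 and 124 CPM, with a log2 ratio of -0.23 (-0.71 to 0.23). Klrc2 was at 1.28 (0.75 to 1.85) and Klrg1 at 1.35 (0.78 to 1.97) in low cells. Cd7 in TG low cells was at 531 CPM, a log2 ratio of 2.47 over WT (2.22 to 2.72).

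Pairs of members were read in the same cells, a reading added after the levels were seen. Among WT CD8 T cells without a Klrc1 UMI, 43.4% had one of Cd7 (32.5% to 54.7%), against 15.5% of those with Klrc1 (12.9% to 18.4%), although the cells without it were shallower, at a median of 3981 against 6017 UMIs. In KO the shares were 26.7% (17.9% to 37.0%) and 12.9% (10.8% to 15.3%). In TG they were 80.6% (64.0% to 91.8%) and 62.7% (49.1% to 75.0%), which overlapped. Cd7 was thus less frequent in cells with Klrc1 in WT and KO beyond counting error. Read the other way, most cells with Cd7 also had Klrc1, 75.5% in WT (67.7% to 82.2%), 83.0% in KO (75.7% to 88.8%) and 56.1% in TG (43.3% to 68.3%).

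The other genes of the pathway were taken from lists. Of 17 adaptor and signalling genes, 15 entered KO over WT in CD8 T cells, where 2 were 2-fold or more higher and 0 lower, and 12 entered TG over WT, with 1 higher and 0 lower. Over all genes 3.32% were higher and 2.41% lower in KO, and 1.97% higher and 6.49% lower in TG. Hcst, the adaptor of NKG2D, stood at 515 CPM in WT, 498 in KO and 602 in TG, and the kinase gene Lck at 437, 409 and 351. The higher genes were Tyrobp and Syk in KO and Fcer1g in TG, named after their values were seen. Tyrobp and Fcer1g code for adaptors that T cells and myeloid cells can both make. Tyrobp stood at 8.67 CPM in WT, 37.3 in KO and 47.6 in TG, and Fcer1g at 66.3, 80 and 258. The summed level of 10 myeloid markers in the same cells was 24.2 CPM in WT, 113 in KO and 39.6 in TG, with S100a9 at 0 in all 3, and its part in these values was not tested.

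Of the Ly49 family, receptors for MHC class I, 11 of 12 genes were in the table, 4 entered KO over WT with 2 lower (Klra3 and Klra7), and 1 entered TG over WT and was higher. That gene, Klra5, had 13.0 CPM in WT, 24.6 in KO and 133 in TG. Klra7 stood at 8.49 CPM in WT, 0.745 in KO and 77.3 in TG. These genes are near copies of each other, and their counts are uncertain for that reason. Of the other lectin-like receptors, 6 of 11 genes entered KO over WT with 2 lower, and 3 entered TG over WT with 1 lower. Klri2, whose product pairs with that of Klre1, was lower in both, at 28.2 CPM in WT, 13.0 in KO and 0 in TG. Of the other NK-type receptors, 14 of 16 entered KO over WT with 2 higher and 0 lower, and 10 entered TG over WT with 1 lower. Il2rb, a subunit of the IL-2 and IL-15 receptors, stood at 649, 562 and 608 CPM, and Tigit at 297, 370.3 and 172. The shares of all genes were again 3.32% higher and 2.41% lower in KO over WT, and 1.97% and 6.49% in TG over WT, and lists of 1 to 6 genes are too short to read against them.

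By granzyme level in WT, 1 of 12 adaptor genes was higher (Fcer1g), 1 of 3 Ly49 genes higher and 1 lower, 0 of 4 other lectin-like receptors either way, and 1 of 12 other NK-type receptors higher and 2 lower. In KO these counts were 1 higher and 1 lower of 13, no Ly49 gene with enough UMIs, 1 lower of 2, and 3 lower of 10. Over all genes 1.30% were higher and 5.27% lower in WT, and 1.17% and 7.20% in KO. Of the ligand genes 0 of 4 passed the bound in WT and 1 of 2 was lower in KO. The list of 16 NK and cytotoxic context genes had 2 higher and 5 lower of 15 by granzyme level in WT and 2 higher and 4 lower of 13 in KO. All 16 entered KO over WT with 3 higher (Gzmb, Gzmk and Eomes) and 4 lower (Zfp683, Ikzf2, Tox and Itgae), and 13 entered TG over WT with 2 higher (Tcf7 and Itgae) and 3 lower (Prf1, Tbx21 and Id2), named after their values were seen, beside 3.32% and 2.41% of all genes in KO over WT and 1.97% and 6.49% in TG over WT. Gzmb stood at 2799 CPM in WT, 5879 in KO and 1652 in TG, and Nkg7 at 2963, 3769 and 1912.

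H2-T23, the ligand gene of the receptors that hold Klrd1, stood in CD8 T cells and in the myeloid and MC38 gates highest in KO, a set named after its values were seen. It stood at 399 CPM in WT, 648 in KO and 367 in TG CD8 T cells. In cells without a TCR that carried MC38 or stromal markers it stood at 145, 272 and 54.1 CPM, and in those with myeloid markers at 448, 920.0 and 230.5. In the gate of NK markers of cells without a TCR it was 1102 in WT and 804 in KO, the other way round. Of the 16 ligand genes, 7 entered KO over WT in CD8 T cells with 1 higher and 0 lower, and 2 entered TG over WT with none past the bound, beside 3.32% and 2.41% of all genes in KO over WT and 1.97% and 6.49% in TG over WT.

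As a measure of free RNA, the members were counted in cells that should lack them. In 258 WT cells with MC38 or stromal markers and a median of 28699.5 UMIs, a Klrd1 UMI was found in 0.388% of cells, one of Klrc1 in 0.775%, one of Cd7 in 0.388% and one of Styk1 in 2.33%. None of these cells had a Klrk1 or Klrg1 UMI, which allows a share of up to 1.16%. In 66 WT cells with myeloid markers and a median of 6599.5 UMIs the share was 4.55% for Klrd1, 9.09% for Klrk1 and 3.03% for Klrc1. No Klrd1 UMI was found in the myeloid gates of KO and TG. The Klrd1 share of 1.87% in WT Foxp3-positive cells lay between the shares of the 2 WT gates, with 3 of its 4 UMIs in 1 cell, and is not read as expression, and the part of free RNA in it was not tested. The Klrc1 share of 13.1% in these cells lay above both gates.

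The number of NK cells among the cells without a TCR cannot be read from the gate of NK markers. Cells in the gate had no UMI of the T cell markers, so any NK cell with such a UMI was left out. An Ncr1 UMI was found in 13 cells, all outside the T cells, and 1 of them was in the gate. The gate of 9 NK markers took 47 WT, 69 KO and 19 TG cells, but Ncr1, Eomes, Klra8 and Klra4 were at 0 in the KO and TG cells, Ncr1 had 2 UMIs in 1 of the WT cells, and the same cells had a summed level of myeloid markers between 1026 and 3840.1 CPM. The gate is therefore not called NK cells. Cd7 stood in it at 720.2 CPM in WT, 241 in KO and 998 in TG, and Klrd1 at 309, 169 and 419.7, with Klrc1 at 1 UMI in each genotype. Cells with dendritic markers, 12 in WT and 15 in KO, had Klrk1 at 250.3 and 205 CPM and Klrd1 at 192 and 199.

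The genes most like each member over the 9 sums of class and genotype were listed as a description, by Pearson's r of log2(CPM + 10) among 2282 genes of 100 or more CPM in at least 1 sum. These sums share 1 library and the same mice. For Klrd1 they were Sh2d2a (0.972), Klrk1 (0.970) and Efhd2 (0.969). For Klrk1 they were Sh2d2a (0.979), Slamf7 (0.977) and Bcl2 (0.973), and for Klrc1 Chst12 (0.974), B4galnt1 (0.958) and Klrd1 (0.954). Klre1 was most like Atp8b4 (0.945), Rpl4 (0.944) and Rpl27 (0.941), and Klrg1 like Ets2 (0.992), Pak2 (0.985) and Wnk1 (0.979). For Cd7 they were Snrpg (0.957), Klra5 (0.951) and Rps13 (0.945).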

How the data were processed

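The deposited matrix holds UMI counts per gene and barcode, which the authors made with Cell Ranger on mm10 (GRCm38). The submitters' notes name version 6.1.0, while the matrix header names another major version. The table of TCR contigs was used as deposited, and a second file of contigs in another format was not used. Of 730308 barcodes, 5600 with 500 or more gene UMIs were kept (median 4808), and HTODemux of Seurat 5.3.0 called 4935 hashtag singlets and 427 doublets, which were left out with 238 cells without a hashtag. Doublets within a genotype were not called, and cells with 2 or more β chains were left out as an alternative. Counts were summed per genotype and class with Python 3.11.15, numpy 2.4.6, scipy 1.17.1 and pandas 2.3.3, and the scripts were tested on simulated data. A count of 0 in a ratio was set to a floor of 3 UMIs, which gives a bound. For shares at equal depth each cell was thinned to 1000 UMIs, and 2 TG CD8 T cells below that were left out. With 1 sample per genotype no test was run.

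All 10 members are given. From the other lists, counts past the bound and at most 4 genes by UMIs are named, beside genes said to be named after their values were seen, and 3 like genes for 6 members. The members and lists were chosen with earlier results of these data known. Alternatives changed the T cell, CD8 and Foxp3 gates, the cell filter, the hashtag call, the CPM denominator, depth, the weight of clonotypes, the largest clonotype, the filter on expected UMIs and the bounds of size and granzyme level.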

Additional observations from a re-analysis of the deposited data

Results flagged for a closer look

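The KO over WT log2 ratio of Klrg1 had different directions in the T cell classes. It was 0.97 (0.53 to 1.43) in CD8, 0.30 (0.04 to 0.57) in Foxp3-positive CD4 and -0.90 (-1.57 to -0.23) in Foxp3-negative CD4 T cells. The TG over WT log2 ratio of Klrc1 was 1.27 (0.65 to 1.93) in Foxp3-positive CD4, -0.87 (-1.09 to -0.67) in CD8 and -1.01 (-1.36 to -0.67) in Foxp3-negative CD4 T cells. With 1 sample per genotype the difference between classes was not tested.

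Ncr1 had 24 UMIs in 13 cells outside the T cells and 0 in the T cells.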

How the results depend on the processing

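Among 74 log2 ratios of single members, 646 of the values under alternatives stayed within the interval of the reported value, 102 lay outside it and 3 values past the 2-fold bound changed sign. Ratios under the bound were not counted as reversed, such as Klrk1 in TG over WT, which went from -0.05 to 0.61 in clonotypes of 1 cell. The 3 were Klrc1 in TG Foxp3-positive over Foxp3-negative cells, at 0.25 after thinning, Klrc2 in KO over WT, at -0.01 in clonotypes of 1 cell, and Klrg1 by granzyme level in WT, at -0.68 without the largest clonotype. Leaving out the largest clonotype also gave 0 members higher by granzyme level in WT. Of the counts of members past the bound, 233 stayed within 1.5 times the reported one and 37 did not. Thinning leaves fewer UMIs, so fewer genes enter by construction. It gave 3 members higher in WT CD8 over Foxp3-negative CD4 T cells and 0 lower in KO, 0 higher and 0 lower in TG Foxp3-positive cells, 0 higher and 0 lower in KO over WT, 1 lower in TG over WT, 1 higher by clonotype size in WT and 0 either way in KO, and by granzyme level 0 higher in WT and 0 lower in KO. Without the filter on expected UMIs, CD8 over Foxp3-negative cells had 1 lower in WT and 5 higher in TG, Foxp3-positive cells had 5 lower in WT, 2 higher in KO and 3 lower in TG, and large WT clonotypes had 2 lower. T cells taken by CD3 gave 2 higher in WT and 0 lower in TG Foxp3-positive cells. The CD8 gate with Cd8b1 gave 0 lower in TG CD8 over Foxp3-negative cells, 2 higher in TG over WT and 0 higher by granzyme level in WT. The share of the top hashtag gave 0 lower in KO over WT and 0 higher by size in WT, and the reduced denominator 1 higher by size in WT. Equal weight of clonotypes gave 0 lower in TG Foxp3-positive cells, 1 higher by size in WT and 1 higher by granzyme level in KO. In TG Foxp3-positive cells there were 0 lower without cells of 2 or more β chains and 2 lower with Foxp3 from 2 UMIs. The last 3 alternatives were chosen after seeing the data. Clonotypes of 1 cell gave 0 higher and 0 lower in KO over WT and 0 lower in TG over WT. Without clonotypes shared with Foxp3-positive cells there were 0 lower in KO CD8 over Foxp3-negative cells and 0 lower in TG Foxp3-positive cells. The third added alternative, without cells with a myeloid UMI, left Klrc2 in KO over WT at 1.30. Beyond thinning, the cause of these changes was not tested. No paired analysis was possible because each genotype is 1 sample.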

Other observations

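T cells with a TCR that passed neither the CD8 nor the CD4 gate numbered 312 in WT, 238 in KO and 325 in TG. Klrd1 stood in them at 236 CPM in WT, 407 in KO and 43.1 in TG, and Klrk1 at 119, 212 and 29.8. Klrg1 stood at 204, 173 and 497 CPM, and Cd7 at 128, 103 and 51.3.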
